A study of Xenopus laevis with 12 samples.

Results

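The genes described here are 4 stress and survival genes of the clawed frog Xenopus laevis: gadd45a.L and gadd45g.L of the GADD45 family, casp9.S (caspase 9) and mcl1.L (MCL1). They were taken by gene symbol from 45099 gene models, each of the 4 symbols matching 1 model, and were followed across all 12 libraries of a study of optic nerve crush. Of these, 11 hold RNA bound to ribosomes of retinal ganglion cells, recovered by translating ribosome affinity purification (TRAP), and 1 holds total retina RNA. In TRAP a large-subunit ribosomal protein carrying EGFP is pulled down with antibodies, together with the messenger RNA being translated on it. All frogs carried Tg(islet2b:EGFP-RPL10a), in which the islet2b promoter drives the tagged protein in ganglion cells, as F1 offspring of single female founders. They were over 6 months old and 3.5 to 5 cm long, with 10 frogs per condition, and the TRAP RNA of 3 replicates was pooled, so that every condition was 1 library.

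The crushed eyes were sampled at days 1, 3, 7 and 11 after crush of the right optic nerve, and the untreated left eyes of the same frogs served as contralateral libraries. The sham-operated frogs gave a left and a right library at day 1, and unoperated frogs gave 1 naive TRAP library and 1 library of total retina RNA. The sample labels place the crush on the right, and 1 sentence of the study's design names the left. The labels were followed. The naive, sham and contralateral libraries are together called the 7 uninjured TRAP libraries.

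GADD45 proteins are small stress-induced proteins without enzyme activity. In mammals they bind the kinase MAP3K4, which activates the p38 and JNK pathways, and they also bind PCNA and the cell cycle inhibitor p21, and have been linked to DNA repair and demethylation. Caspase 9 is the initiator protease of the mitochondrial route of apoptosis: cytochrome c released from mitochondria assembles APAF1 into the apoptosome, on which caspase 9 becomes active and cleaves the executioner caspases. MCL1 is a short-lived member of the BCL2 family that holds back the pore-forming proteins of the outer mitochondrial membrane upstream of that step. In mammals many ganglion cells die after optic nerve injury, whereas frogs regrow the optic nerve.

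The libraries held 16820571 to 63299998 counts. Naive TRAP RNA was rich in the markers of ganglion cells, with a median log2 ratio over total retina of 3.33 for 19 genes, and poor in those of photoreceptors, at -4.04 for 15 genes. Levels are given as CPM, which are counts scaled to library size with the trimmed mean of M-values (TMM), and as the deposited TPM, which also allow for transcript length, where different genes are set side by side. Ratios between single libraries have no replicate check, and their 95% intervals cover counting error only.

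In uninjured ganglion cells the 4 genes differed in level. Per transcript length, casp9.S stood at 31.2 to 38.7 TPM over the 7 uninjured TRAP libraries (median 36.3) and gadd45g.L at 13.2 to 50.02 TPM (median 24.9). mcl1.L stood at 16.5 to 23.1 TPM (median 20.8) and gadd45a.L at 3.08 to 7.70 TPM (median 4.95). The ranges of casp9.S and gadd45a.L lay clear of each other and of that of mcl1.L, whereas the range of gadd45g.L overlapped those of casp9.S and mcl1.L. The spread between uninjured libraries was narrow for casp9.S and mcl1.L, with a highest value 1.24 and 1.44 times the lowest, and wider for gadd45a.L (2.44 times) and gadd45g.L (3.80 times). The count behind gadd45a.L was as low as 33 reads, in the right sham eye.

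Compared with total retina, naive TRAP RNA held less of both GADD45 transcripts. gadd45g.L stood at 57.4 CPM in total retina and 9.73 CPM in naive TRAP, a 5.90-fold lower value (interval 5.32 to 6.55), and gadd45a.L at 12.6 and 2.57 CPM, a 4.92-fold lower value (4.001 to 6.09). Over 2-fold lower values were found for 19.3% of 19677 genes and over 2-fold higher values for 20%. mcl1.L stood at 53.6 CPM in total retina and 28.0 CPM in naive TRAP, a log2 ratio of -0.93, and casp9.S at 39.6 and 55.5 CPM, a log2 ratio of 0.48. With the deposited TPM, which are scaled to the whole library, the mcl1.L ratio was -1.13 and passed 2-fold. This comparison is 1 library against 1 and was not tested.

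**Figure D1:**
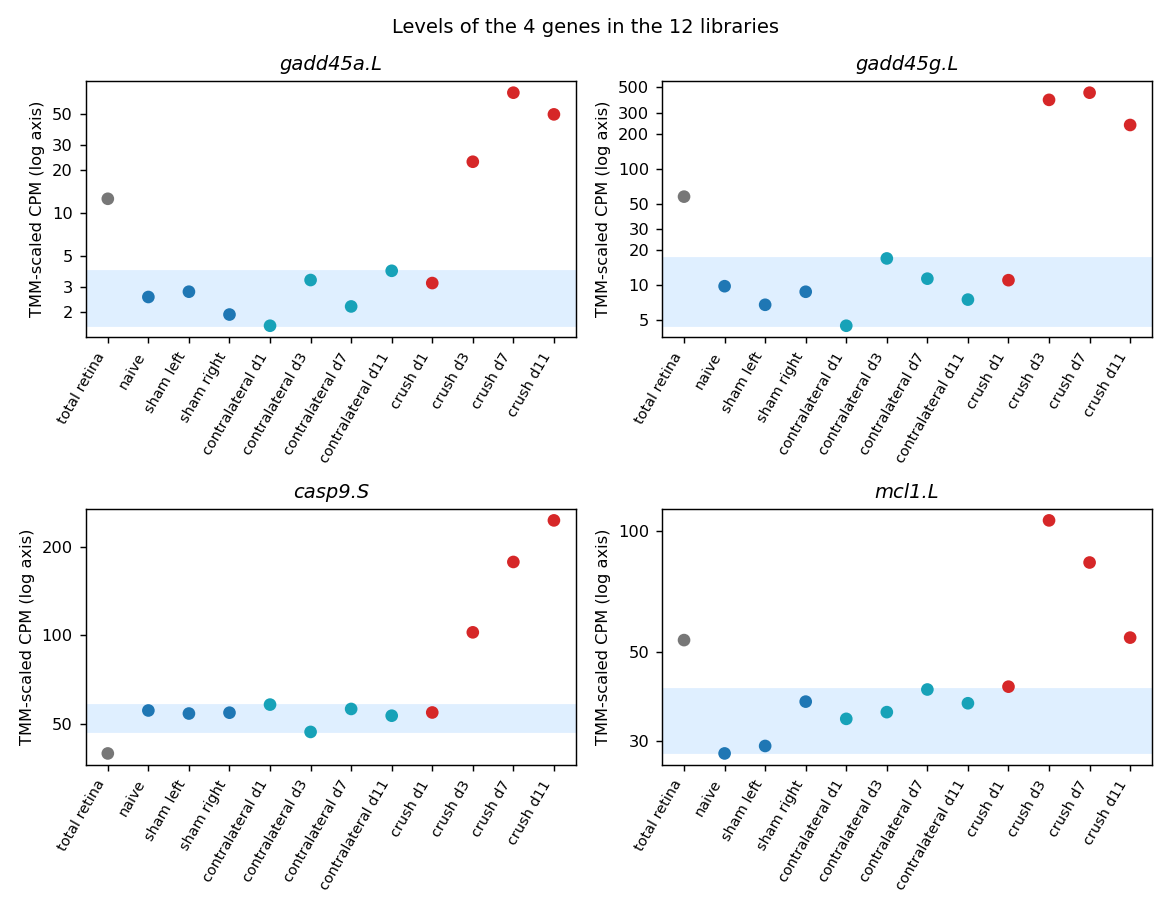
Level of each of the 4 genes in every library, as TMM-scaled CPM on a log axis. Grey marks total retina, blue naive and sham TRAP, teal the contralateral eye and red the crushed eye, 1 pooled library per point, and the blue band spans the 7 uninjured TRAP libraries. The crushed-eye libraries of days 3, 7 and 11 lie above the band for all 4 genes, and that of day 1 lies inside it for gadd45a.L, gadd45g.L and casp9.S and just above it for mcl1.L.

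Per transcript length, gadd45g.L was the most abundant of the 4 genes in the crushed eye from day 3 on. Its contralateral libraries stood at 4.44, 16.9, 11.3 and 7.46 CPM at days 1, 3, 7 and 11, and the left and right sham libraries at 6.73 and 8.71 CPM. The crushed eye stood at 11.0, 391, 451 and 237.5 CPM on the same days. The libraries of days 3, 7 and 11 were far above every uninjured library, and that of day 1 was within their range. The crushed-to-contralateral fold was 2.47 (2.12 to 2.87) at day 1, 23.2 (21.3 to 25.2) at day 3, 39.9 (34.7 to 46.2) at day 7 and 31.8 (28.6 to 35.6) at day 11. The day 1 fold rests on a low contralateral value: against the mean of the 7 uninjured libraries its log2 ratio was 0.34 in place of 1.29. From day 7 to day 11 the level in the crushed eye changed 0.527-fold (0.514 to 0.540). In TPM the crushed eye went from 33.2 at day 1 to 1127, 991 and 481 at days 3, 7 and 11, so that on this scale day 3 was the highest, against 197 in total retina.

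gadd45a.L began from the lowest level of the 4. The contralateral libraries stood at 1.61, 3.38, 2.201 and 3.93 CPM at days 1, 3, 7 and 11, and the left and right sham libraries at 2.80 and 1.93 CPM. The crushed eye stood at 3.22, 23.0, 70.7 and 49.7 CPM. Day 1 lay within the uninjured range and the later days lay above it, with the highest level at day 7. The fold over the contralateral eye was 2.00 (1.54 to 2.61) at day 1, 6.82 (5.59 to 8.38) at day 3, 32.1 (23.4 to 45.4) at day 7 and 12.7 (10.9 to 14.8) at day 11. The day 7 contralateral value comes from 38 reads, which sets the wide interval of that fold. Against the mean of the uninjured libraries the day 1 log2 ratio was 0.34 in place of 0.98.

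casp9.S, the 1 caspase 9 copy that carries a symbol, differed from the GADD45 genes in timing. The contralateral libraries stood at 58.1, 46.9, 56.1 and 53.2 CPM at days 1, 3, 7 and 11, and the sham libraries at 54.1 on the left and 54.5 CPM on the right. The crushed eye stood at 54.6, 102, 177 and 246 CPM. It lay within the uninjured range at day 1 and was higher at each later sampling than at the one before, with its highest level at day 11. The fold was 0.940 (0.894 to 0.989) at day 1, 2.18 (2.05 to 2.32) at day 3, 3.16 (2.96 to 3.38) at day 7 and 4.61 (4.41 to 4.83) at day 11. Between days 7 and 11 the crushed eye went up 1.38-fold (1.35 to 1.42), where the other 3 genes went down. The day 11 log2 ratio of 2.21 was 1.62 in deposited TPM.

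mcl1.L was highest at day 3 and lower at each sampling after it. Its contralateral libraries stood at 34.1, 35.5, 40.4 and 37.3 CPM at days 1, 3, 7 and 11, and the left and right sham libraries at 29.2 and 37.7 CPM. The crushed eye stood at 41.0, 106, 83.5 and 54.3 CPM. All 4 crushed-eye values were above every uninjured value, day 1 by a small margin over the contralateral value of day 7. The fold was 1.202 (1.13 to 1.28) at day 1, 3.00 (2.80 to 3.21) at day 3, 2.07 (1.91 to 2.24) at day 7 and 1.46 (1.37 to 1.55) at day 11. The late values depended on scaling. The day 11 log2 ratio of 0.54 was 0.20 with total counts and -0.04 in deposited TPM, where the crushed eye stood at 21.8 TPM, inside the uninjured range. The day 7 ratio of 1.05 was 0.65 in deposited TPM.

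The 4 genes can be read against all genes on the same days. At day 1, 1.32% of 20006 genes were over 2-fold higher in the crushed eye, and gadd45g.L was the 1 of the 4 genes with a log2 ratio over 1. At day 3, 8.02% of genes were over 2-fold higher, and at day 7 19.6%, and on both days so were all 4 of the genes. At day 11 the share was 18.8%, and gadd45a.L, gadd45g.L and casp9.S were past 2-fold. Between the sham eyes 0.464% of genes were over 2-fold higher on the right, and the 4 genes had log2 ratios from -0.52 for gadd45a.L to 0.37 for gadd45g.L and mcl1.L. The crushed eye stood above all 7 uninjured libraries for 11.6%, 28.1%, 34.6% and 33.8% of 24521 genes at days 1, 3, 7 and 11. It did so on days 3, 7 and 11 alike for 16% of genes, all 4 of the genes among them, and on all 4 days for 2.63% of genes, mcl1.L among them. For 4.6% of genes all crushed-eye libraries were above all contralateral libraries, and of the 4 genes mcl1.L was 1 of these. The median log2 ratio of all genes lay between -0.01 and 0.10 on the 4 days, and with total counts it moved to -0.14 at day 7 and -0.33 at day 11. The ratios of the 4 genes then moved by between -0.34 and 0.02.

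**Figure D2:**
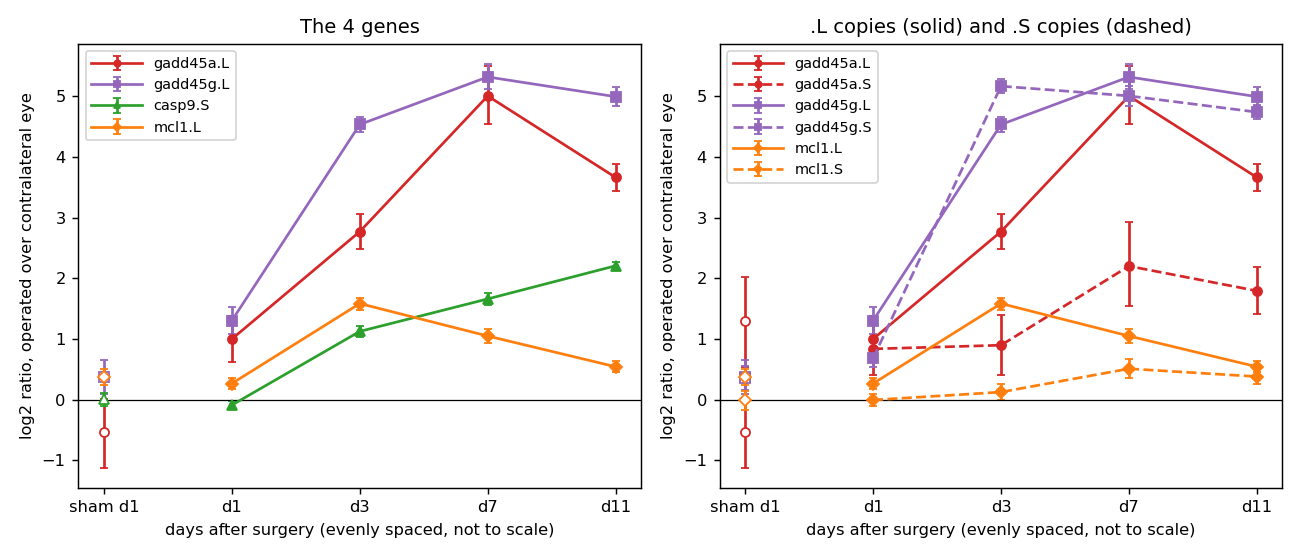
Log2 ratio of the crushed over the contralateral eye against day after crush for the 4 genes, with the other copy of 3 of them, from TMM-scaled CPM without a prior count. Days are evenly spaced, bars are 95% counting intervals and open points are the right over the left sham eye. gadd45a.L and gadd45g.L are highest at day 7, at 32.1-fold and 39.9-fold, mcl1.L at day 3, at 3.00-fold, and casp9.S at day 11, at 4.61-fold.

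Whether the difference between the eyes held over the 4 days was tested with the days as blocks, 1 pair of libraries per day, by edgeR's quasi-likelihood test with Benjamini-Hochberg adjustment. None of the 4 genes passed, where 0.0385% of 26004 genes did, all 10 of them higher. In simulated data this test recovered 6% of changes of 1 log2 unit and 68% of changes of 2 log2 units. Not passing therefore does not show that a gene was unchanged. Whether these recovery shares hold for genes whose ratio differs between days, as it did for the 4 genes, was not tested. The mean log2 differences were 4.20 ± 0.76 (SE) for gadd45g.L, 3.13 ± 0.65 for gadd45a.L, 1.25 ± 0.39 for casp9.S and 0.87 ± 0.26 for mcl1.L, each with an adjusted p of 0.223. The crushed eye was higher on 4 of 4 days for gadd45a.L, gadd45g.L and mcl1.L and on 3 of 4 days for casp9.S. The unadjusted p-values in edgeR were 0.000946 for gadd45g.L, 0.00205 for gadd45a.L, 0.0134 for mcl1.L and 0.0156 for casp9.S, and 5395 genes had an unadjusted p under 0.05. The calls turned on day 1. Without it 10.4% of 25761 genes passed (6.25% higher), and the differences were 4.95 for gadd45g.L (adjusted p = 0.00151), 3.78 for gadd45a.L (0.0107), 1.67 for casp9.S (0.0256) and 1.06 for mcl1.L (0.0532) in edgeR. DESeq2 with all 4 days called 6.38% of genes higher and all 4 of the genes, with adjusted p from 1.11e-10 for gadd45g.L to 0.0388 for mcl1.L.

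The dependence on time was tested as the change of the crushed-to-contralateral log2 ratio per doubling of the day, in the same libraries. The slopes of gadd45a.L, gadd45g.L and casp9.S were positive and passed, and that of mcl1.L did not pass. The fold of gadd45a.L was 32.1 at day 7 and 12.7 at day 11, and that of gadd45g.L 39.9 and 31.8. A positive slope therefore does not mean a rise at each sampling. Rising or falling with day means below that the slope passed. The slopes were 1.11 ± 0.22 (SE) for gadd45g.L (adjusted p = 0.0167), 0.94 ± 0.22 for gadd45a.L (adjusted p = 0.0249) and 0.65 ± 0.11 for casp9.S (adjusted p = 0.00766) in edgeR's quasi-likelihood test with Benjamini-Hochberg adjustment. That of mcl1.L was 0.09 ± 0.16 (adjusted p = 0.777). Slopes passed for 12.7% of all genes, and 5.83% rose, 1515 rising against 1781 falling. With total counts the split was 881 against 2596.

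The GADD45 slopes did not pass without day 1. Slope fits with a day left out have fewer residual degrees of freedom than the 2 of the full fit. Whether a slope passed in them is therefore a weak check. With days 3, 7 and 11 alone the slope of gadd45g.L was 0.30 (adjusted p = 0.353) and that of gadd45a.L 0.61 (adjusted p = 0.414) in edgeR, while that of casp9.S was 0.56 (adjusted p = 0.0494). Without day 11 the slope of casp9.S was 0.63 (adjusted p = 0.0653). For mcl1.L the slope without day 1 was -0.54 (adjusted p = 0.0691). Without the day block gadd45g.L did not pass, at 0.97 (adjusted p = 0.594).

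The late state was compared with all 7 uninjured TRAP libraries, with the crushed-eye libraries of days 7 and 11 taken as replicates of it. All 4 genes rose, by edgeR's quasi-likelihood test with Benjamini-Hochberg adjustment, where 48.5% of 28631 genes passed and 24.8% rose. The log2 differences were 5.26 ± 0.41 (SE) for gadd45g.L (adjusted p = 1.38e-05) and 4.53 ± 0.22 for gadd45a.L (adjusted p = 5.45e-13). They were 2.00 ± 0.10 for casp9.S (adjusted p = 1.79e-13) and 1.03 ± 0.15 for mcl1.L (adjusted p = 2.61e-06). Differences at least as high were found for 0.789% of genes for gadd45g.L, 1.11% for gadd45a.L, 5.98% for casp9.S and 17.2% for mcl1.L. So the GADD45 genes stood near the top of all genes, and mcl1.L among many. The 4 genes were chosen with earlier results of these data known, so these ranks are a description only. All 4 genes passed under every alternative run for this comparison that kept both late crushed-eye libraries. Deposited TPM was not among the alternatives. On that scale mcl1.L in the crushed eye at day 11 stood at 21.8 TPM, inside the uninjured range of 16.5 to 23.1 TPM. The alternatives without the crushed-eye library of day 7 or 11 leave 1 such library, assumed to vary like the uninjured ones, so they are no check on replication. The mcl1.L difference was then 0.65 without day 7 and 1.31 without day 11. With total counts the split of all genes moved from 7095 rising and 6804 falling to 5029 and 9167. The contralateral libraries are shared with the comparisons above and come from the same frogs as the crushed eyes, so the 3 tests are not independent of each other. The late fit had no block, so left and right libraries of the same frogs entered it as separate units. Its p-values do not allow for this.

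Markers of ganglion cells were lower in the crushed eye from day 3 on. The summed level of the 21 ganglion cell marker models was 10260 to 10840 TPM in the uninjured TRAP libraries and 10220, 5238, 1415 and 1789 TPM in the crushed eye at days 1, 3, 7 and 11. Total retina stood at 1434 TPM. In RNA from many cells, fewer cells of a type and less RNA per cell cannot be told apart. The summed photoreceptor markers (15 models) were 993.5 to 1357 TPM in the uninjured libraries and 592 and 616.8 TPM at days 7 and 11, against 20480 TPM in total retina. Bipolar, amacrine, oligodendrocyte and Schwann cell, and pigment epithelium markers were also below their uninjured range at days 7 and 11. The summed oligodendrocyte and Schwann cell markers (6 models) were 300 to 371 TPM uninjured, above the 152 TPM of total retina, and 45.7 and 28.1 TPM at days 7 and 11. The median log2 ratio of naive TRAP over total retina was -2.48 for 5 of these models. Leukocyte and microglia markers (6 models) stood at 0.45 to 0.97 TPM in the crushed eye, within the uninjured range of 0.19 to 1.35 TPM. Endothelial and blood markers (8 models) stood at 16.2 to 53.3 TPM against 16.5 to 62.1 TPM, and markers of proliferating cells (6 models) at 2.06 to 2.99 TPM against 1.81 to 4.70 TPM. Above its uninjured range was the Mueller glia and astrocyte list (9 models, vimentin included), at 216 and 388 TPM on days 7 and 11 against 84.0 to 138.9 TPM uninjured and 829.5 TPM in total retina. The median log2 ratio of its 6 models with enough counts was 0.11 at day 7 and 0.22 at day 11. Its vim.2.L was at 0 in all crushed-eye libraries, as were rbpms.L of the ganglion cell list and best1.L and ttr.S of the pigment epithelium list. The part of the lower ganglion cell markers and of the Mueller glia values in the results was not tested. In the crushed eye gadd45g.L stood at 6.81, 7.85 and 4.14 times its total retina level on days 3, 7 and 11. gadd45a.L stood at 1.82, 5.59 and 3.93 times, casp9.S at 2.58, 4.48 and 6.20 times and mcl1.L at 1.98, 1.56 and 1.01 times that level. These folds are from TMM-scaled CPM. In deposited TPM on the same days gadd45g.L stood at 1127, 991 and 481 against 197 in total retina. gadd45a.L stood at 43.0, 101 and 65.2 against 28.1 TPM, and casp9.S at 66.1, 87.65 and 111.9 against 30.5 TPM. For mcl1.L the values were 60.6, 36.4 and 21.8 against 36.4 TPM, below total retina at day 11.

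Xenopus laevis carries an L and an S copy of many genes from an ancestral genome doubling, and reads of similar copies can be divided between them by the estimation step. gadd45g.S followed gadd45g.L: it stood at 12.4 to 19.0 CPM in the uninjured TRAP libraries and 19.8, 683, 555 and 344 CPM in the crushed eye. The late difference was 4.91 ± 0.16 on the log2 scale (edgeR adjusted p = 2.09e-12), while its slope of 1.16 ± 0.41 did not pass (adjusted p = 0.146). gadd45a.S stood at 0.670 to 1.84 CPM (median 1.61) and at 2.31, 3.43, 5.33 and 5.59 CPM in the crushed eye. Its late difference was 1.97 ± 0.36 (edgeR adjusted p = 7.98e-05), against 4.53 for gadd45a.L. The slope of gadd45a.S, 0.37 ± 0.27, did not pass (edgeR adjusted p = 0.431). mcl1.S stood at 20.7 to 31.7 CPM (median 23.6) and at 27.0, 34.6, 32.2 and 27.0 CPM in the crushed eye, with a late difference of 0.30 ± 0.16 that did not pass (edgeR adjusted p = 0.122).

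The division of reads between the copies is given as a description, since the L copies of gadd45a and mcl1 were chosen with their results known. The L-to-S read ratio of gadd45a was 1.39, 6.71, 13.3 and 8.89 in the crushed eye at days 1, 3, 7 and 11 and 1.18 to 4.18 in the uninjured TRAP libraries. The ratio of mcl1 was 1.52, 3.07, 2.60 and 2.01 in the crushed eye and 1.12 to 1.80 in the uninjured libraries. For both genes the crushed-eye libraries of days 3, 7 and 11 were above all uninjured libraries and that of day 1 was not. The ratio of gadd45g was 0.552, 0.572, 0.813 and 0.691 in the crushed eye and 0.359 to 0.887 in the uninjured libraries, so that the groups overlapped. None of these ratios was tested.

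**Figure D3:**
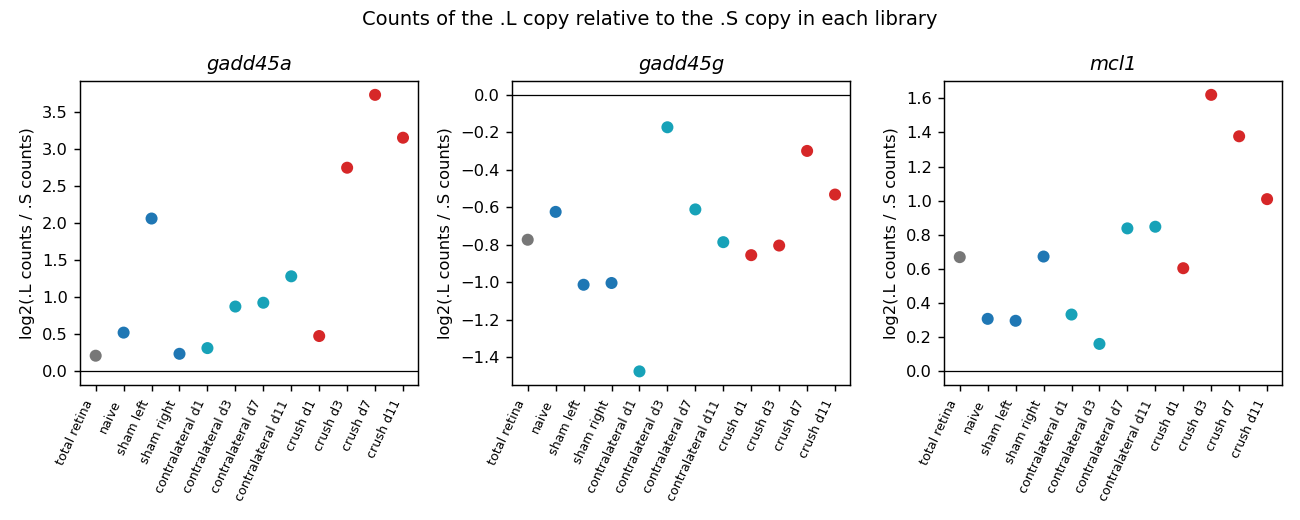
Log2 ratio of L-copy to S-copy reads of gadd45a, gadd45g and mcl1, 1 point per library, with total retina in grey, naive and sham TRAP in blue, the contralateral eye in teal and the crushed eye in red. For gadd45a and mcl1 the crushed-eye values of days 3, 7 and 11 lie above all uninjured values, and for gadd45g the groups overlap.

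Across the 11 TRAP libraries, Pearson's r of log2 CPM between the 4 genes ran from 0.705 for casp9.S and mcl1.L to 0.961 for gadd45a.L and gadd45g.L. These values describe libraries in which the crushed eyes of days 3, 7 and 11 stand apart, so high r is common. Among 11653 other genes with a symbol and a mean of 100 counts or more, the most alike to gadd45a.L were pop5-like.L (r = 0.996), zfp36.L (0.991), dcaf13.L (0.990), farsb.L (0.989) and kpnb1.L (0.989). In mammals zfp36 encodes tristetraprolin, which promotes decay of AU-rich messenger RNA, and kpnb1 importin beta, a nuclear import receptor. zfp36.L went from a median of 3.24 CPM uninjured to 50.5, 174 and 144 CPM in the crushed eye at days 3, 7 and 11. Those most alike to gadd45g.L were por-like.L (0.992), gadd45g.S (0.991), lrrn1-like.2.L (0.991), syt4.L (0.990) and slc1a5.L (0.989). slc1a5 encodes a neutral amino acid transporter, and slc1a5.L went from 18.5 CPM to 239, 245.5 and 254 CPM. For casp9.S they were rpl23.L (0.995), rbm6.L (0.994), fam213b.L (0.993), lsp1.S (0.992) and tmbim6.S (0.992). rpl23 encodes a ribosomal protein and tmbim6 the endoplasmic reticulum protein BAX inhibitor 1. tmbim6.S went from 93.3 CPM to 209, 544 and 685 CPM. For mcl1.L they were nck2.L (0.989), mknk2.L (0.980), nt5dc3.L (0.979), pfkfb3.L (0.973) and ctgf.L (0.970). ctgf encodes a secreted matricellular protein, and ctgf.L went from 2.57 CPM to 51.3, 26.4 and 8.24 CPM, with its highest value at day 3 like mcl1.L.

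The genes that act around the 4 were read as 7 lists of 62 models in all. Symbols of these lists and of the cell type markers were matched without the copy and number suffix. Rows with -like in the symbol were left out, and 17409 of the 45099 models carry a symbol. A list symbol without a match may therefore still have a model. The 4 genes are themselves list members and enter the counts and medians of their lists. None of the list members passed over the 4 days in edgeR after the filter on low counts. Unfiltered, cdkn1a.L passed (3.00, adjusted p = 0.0341). Without day 1, gadd45a.L, gadd45g.L, casp9.S, bcl2l10.L, bok.S, cdkn1a.L, diablo.L, gadd45g.S, jun.L and jun.S passed in edgeR, and mcl1.L did not (adjusted p = 0.0532). Among the members named by the rule given with the methods, these genes, mcl1.L, bnip3.S and gadd45a.S passed in DESeq2 with all days. Of all genes 24.8% rose and 23.8% fell in the late comparison, with a median log2 difference of -0.05, and 5.83% rose and 6.85% fell with day.

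Among the anti-apoptotic BCL2 genes, 3 of 4 tested rose in the late comparison (24.8% of all genes) and 0 fell, with a median of 0.79, and 0 of 4 had a slope that passed. The 4 are the copies of mcl1 and bcl2l10, since the other 4 of the list's 6 symbols matched no row by the rule above. Those that rose were mcl1.L and both copies of bcl2l10, a BCL2 relative that in mammals restrains cell death. bcl2l10.L stood at 25.5, 26.5, 35.6 and 33.8 CPM in the contralateral eye and 49.2, 115, 125 and 74.6 CPM in the crushed eye at days 1, 3, 7 and 11. Its late difference was 1.77 ± 0.15 (edgeR adjusted p = 5.18e-09), higher than the 1.03 of mcl1.L, and that of bcl2l10.S was 0.55 (adjusted p = 0.000699), or 0.25 with total counts (adjusted p = 0.117). Among the pro-apoptotic BCL2 genes, 2 of 5 tested fell and 0 rose, both with day (6.85% of all genes fell) and in the late comparison (23.8%), with a late median of -1.23. The list has 13 symbols, and its 6 models are copies of bok, bnip3 and bmf alone. bok.S, a BAX-like effector, stood at 1.25 CPM after crush and 12.9 CPM on the other side at day 11, with a late difference of -3.21 (edgeR adjusted p = 7.66e-09). bnip3.S, a mitochondrial protein linked to mitophagy and cell death, stood at 53.2 and 322 CPM, with a late difference of -2.53 (adjusted p = 1.85e-14). Their slopes were -1.15 ± 0.21 (adjusted p = 0.00958) and -0.81 ± 0.16 (adjusted p = 0.0126), the latter not passing without day 11 (-0.81, adjusted p = 0.0680). The L copies did not pass in the late comparison, at -1.23 for bok.L (edgeR adjusted p = 0.0603) and -0.20 for bnip3.L (adjusted p = 0.397).

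Of the caspases and apoptosome genes, 3 of 10 rose with day (5.83% of all genes) and 5 of 10 rose late (24.8%), 0 fell, and the late median was 0.55. With casp9.S these were both copies of cytochrome c: cycs.L rose late by 1.67 (edgeR adjusted p = 1.16e-07) and cycs.S by 1.16 (adjusted p = 3.96e-08). cycs.L stood at 43.2, 90.2, 189 and 200 CPM in the crushed eye and at 43.2, 74.8, 76.5 and 59.3 CPM in the contralateral eye. The slopes of both copies did not pass without day 7 (adjusted p = 0.0688 for cycs.L and 0.105 for cycs.S) or day 11 (0.218 and 0.402), nor that of cycs.S with total counts (0.0844). The executioner caspase gene casp6.L rose late by 0.74 (adjusted p = 0.0202) and fadd.L, the adaptor of death receptors, by 0.79 (adjusted p = 0.000582). With day 3 counted as late neither passed (0.31, adjusted p = 0.543, and 0.49, adjusted p = 0.0904), and casp6.L did not pass with total counts (0.43, adjusted p = 0.187). Without day 11, which leaves 1 late crushed-eye library, casp6.L was at 0.45. The other fadd copy, fadd.S, did not pass in the late comparison (0.15, edgeR adjusted p = 0.392). Of the caspase inhibitors and their antagonists, 1 of 5 rose with day (5.83% of all genes), and late 2 rose (24.8%) and 2 fell (23.8%), with a median of 0.69. diablo.L, whose mammalian product SMAC is released from mitochondria and relieves caspases of their inhibitors, stood at 12.6, 103, 135 and 126 CPM in the crushed eye and at 13.3, 18.4, 18.6 and 13.9 CPM in the contralateral eye. It rose late by 3.03 (edgeR adjusted p = 2.57e-15), more than casp9.S, and diablo.S by 0.69 (adjusted p = 0.00141), or 0.38 with total counts (adjusted p = 0.0740). The slope of diablo.L, 0.92 (adjusted p = 0.00767), did not pass without day 1 (0.36, adjusted p = 0.233) or without the day block (0.88, adjusted p = 0.109). The inhibitor of apoptosis copy birc2.L fell by 0.37 on the log2 scale (adjusted p = 0.00673) and birc2.S fell by 0.30 (adjusted p = 0.0193). birc2.S did not pass with day 3 added (-0.17, edgeR adjusted p = 0.364). On 1 late crushed-eye library, birc2.L was at -0.24 without day 11 and birc2.S at -0.22 without day 7.

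**Figure D4:**
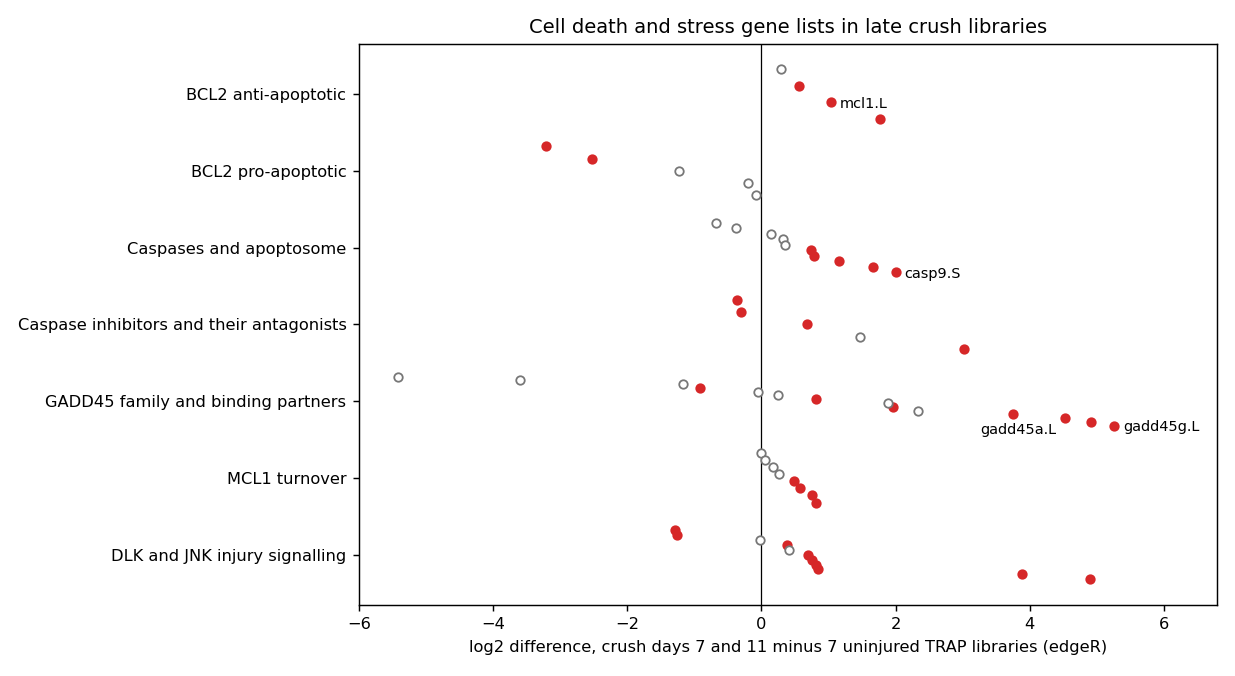
Log2 difference of the late crushed-eye libraries (days 7 and 11) from the 7 uninjured TRAP libraries for each tested model of the 7 lists, 1 row per list. Filled red points passed an adjusted p of 0.05 in edgeR and open points did not. gadd45g.L at 5.26 and gadd45a.L at 4.53 lie near the right end of their list, casp9.S at 2.00 is the highest of the caspases and apoptosome, and bok.S at -3.21 the lowest of the pro-apoptotic BCL2 genes.

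In the GADD45 family and its binding partners, 2 of 10 tested rose with day (5.83% of all genes) and 0 fell, and late 6 of 14 rose (24.8%) and 1 fell (23.8%), with a median of 1.35. gadd45a.L and gadd45g.L are the 2, and these with their S copies are 4 of the 6. The median of 1.35 includes these 4, at 4.53, 5.26, 1.97 and 4.91 for gadd45a.L, gadd45g.L, gadd45a.S and gadd45g.S. It therefore does not describe the binding partners, and gadd45a.L and gadd45g.L were chosen with earlier results known. No row matched the symbols map3k4, pcna or gadd45b, so the partners MAP3K4 and PCNA were not tested. The rows gadd45b-like.L and gadd45b-like.S were left out by the matching. The partners with a row were cdkn1a, gadd45gip1, mapk14, cdk1, ccnb1 and ccnb2. gadd45gip1.1, which encodes a GADD45G-interacting protein, rose late by 0.82 (edgeR adjusted p = 0.000165). Without day 11, which leaves 1 late crushed-eye library, its difference was 0.43. gadd45gip1.L did not pass in the late comparison (0.25, edgeR adjusted p = 0.463). cdkn1a.L, encoding p21, rose late by 3.74 (edgeR adjusted p = 0.000705), to 20.7 and 23.1 CPM at days 7 and 11. The uninjured TRAP libraries stood at 0.192 to 3.43 CPM, the highest being naive. The S copy of cdkn1a, at 17.7 and 20.4 CPM against 15.5 to 24.7 CPM uninjured, did not pass (edgeR adjusted p = 0.839). mapk14.S, a p38 kinase, fell by 0.92 (adjusted p = 4.19e-06).

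Of the genes of MCL1 turnover, 0 of 8 had a slope that passed, and late 4 rose (24.8% of all genes) and 0 fell, with a median of 0.37. The risen were both copies of btrc, a substrate receptor of a ubiquitin ligase, by 0.81 for btrc.S and 0.75 for btrc.L, gsk3b.S, a kinase that in mammals marks MCL1 for degradation, by 0.48, and huwe1.1, an MCL1 ubiquitin ligase, by 0.58. With total counts gsk3b.S (0.18, adjusted p = 0.169) and huwe1.1 (0.28, adjusted p = 0.148) did not pass in edgeR. Nor did gsk3b.S (0.33, adjusted p = 0.0760) and btrc.S (0.49, adjusted p = 0.0754) with day 3 added. Without day 7, which leaves 1 late crushed-eye library, huwe1.1 was at 0.29. The other copies did not pass in the late comparison, at -0.002 for gsk3b.L (edgeR adjusted p = 0.988) and 0.27 for huwe1.S (adjusted p = 0.0947). In DLK and JNK signalling, the stress kinase route that in mammals is switched on by axon injury, 1 of 11 rose with day (5.83% of all genes) and 1 fell (6.85%), and late 7 rose (24.8%) and 2 fell (23.8%), with a median of 0.69. No row carried the symbol of map3k12 or map3k13, the kinases at its head. jun.L and jun.S, the transcription factor at its end, rose late by 4.90 (edgeR adjusted p = 1.76e-11) and 3.89 (adjusted p = 1.09e-18). jun.S stood at 109, 591, 582 and 608 CPM in the crushed eye against 42.8, 41.4, 41.6 and 41.9 CPM in the contralateral eye. Its slope of 0.71 (adjusted p = 0.0299) was 0.01 without day 1 (adjusted p = 0.984), and it did not pass without day 7, without the block, with total counts or with summed copies (adjusted p from 0.0540 to 0.101). The kinase gene map2k7.L fell by 1.29 (adjusted p = 5.50e-07) and map2k7.S fell by 1.26 (adjusted p = 1.15e-08) in the late comparison, the latter at -0.68 with day 3 added (adjusted p = 0.0531). The slope of map2k7.S, -0.53 (adjusted p = 0.0300), did not pass without day 7 (adjusted p = 0.104) or day 11 (adjusted p = 0.132). map2k4.L rose late by 0.75 (edgeR adjusted p = 0.000349). Without day 7, which leaves 1 late crushed-eye library, its difference was 0.18. mapk8ip1.L rose late by 0.85 (edgeR adjusted p = 1.2e-05), mapk8ip3.L by 0.81 (adjusted p = 1.59e-06) and mapk8ip1.S by 0.69 (adjusted p = 6.43e-06). map2k4.S rose late by 0.38 (edgeR adjusted p = 0.0238), and mapk8ip3.S did not pass (-0.02, adjusted p = 0.852).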

How the data were processed

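The authors used RSEM 1.2.21, with Trimmomatic 0.33 and Bowtie2 2.2.5, per the submitters' processing notes. The sources used here name no genome build or annotation. Per the file headers, the deposited tables give, for each of 45099 gene models, an expected count (reads estimated by RSEM) and a TPM value. Of the deposited expected counts 57.9% were whole within 0.001, and rounding them moved no library total by more than 0.000797%. TPM served for levels between genes and as 1 alternative. All 4 symbols are also in the RefSeq gene table of assembly Xenopus_laevis_v10.1, used for names only.

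Counts were scaled by TMM and tested with the quasi-likelihood test of edgeR 4.0.16 in R 4.3.3, robust, after filterByExpr, over all genes, with a Benjamini-Hochberg adjusted p of 0.05 as threshold. The 3 fits set 4 crush against 4 contralateral libraries, with a block for each day, the same with a slope on log2 of the day (2 residual degrees of freedom), and set crush of days 7 and 11 against 7 uninjured TRAP libraries. Per the labels' protocols, the left and right libraries of a day share frogs. Deviations of same-day libraries from their group means had correlations of 0.0704 to 0.15 over 21494 genes, and at most 0.0393 between days. Each library is 1 pool, so p-values measure the spread between pools and days. The SE given with edgeR values is the absolute log2 difference or slope divided by the square root of the test's F value. Single log2 ratios used a prior count of 2 and folds none, and shares of genes over 2-fold cover genes with 200 counts over the pair.

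Alternatives were DESeq2 1.42.0, limma 3.58.1 (voom), DESeq2 size factors, total counts, no filter, summed copies, no block, deposited TPM (pseudocount 0.1), another prior count (0.5) or reference, and leaving out days or libraries. The fits were tested on simulated data. Changes of 1 log2 unit were recovered in 6% of cases over the 4 days, 75% for the slope and 57% in the late comparison. For 2 log2 units the shares were 68%, 98% and 85%. Recovery over the 4 days of changes that differ in size between days was not tested. Named are the 4 genes, copies of the same symbols, list members past the threshold (up to 8 per list and comparison) and the 5 genes of highest r for each. bmf.L, bnip3.L, bok.L, cdkn1a.S, fadd.S, gadd45gip1.L, gsk3b.L, huwe1.S, map2k4.S and mapk8ip3.S fall outside that rule and were picked after their values were seen. The 4 genes and the lists were chosen with earlier results of these data known. A further list is not reported here. No sequence is shown, since none was at hand.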

Additional observations from a re-analysis of the deposited data

Results flagged for a closer look

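The crushed-to-contralateral ratio had a slope on log2 of the day that passed for 3 of the 4 genes. The test was edgeR's quasi-likelihood test with Benjamini-Hochberg adjustment over 26004 genes, of which 12.7% passed. The slope was 0.94 log2 units per doubling of the day for gadd45a.L, 1.11 for gadd45g.L and 0.65 for casp9.S. Without day 1 the slopes of gadd45a.L and gadd45g.L did not pass (edgeR adjusted p = 0.414 and 0.353). A slope cannot show a rise followed by a fall, so it does not decide whether the mcl1.L ratio differed between days. Nor does it show that the gadd45a.L and gadd45g.L ratios were highest at day 7 and lower at day 11.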

How the results depend on the processing

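Every condition is 1 library, so the days stand in for replicates, the interval of a single ratio covers counting error only, and gadd45a.L rests on 33 to 180 reads in the uninjured TRAP libraries. Over the 4 days, where 10 genes passed, the count was 6 with total counts, 25 with no filter, 3127 with DESeq2 and 0 without the replicate block (5450 at an unadjusted p under 0.05), and leaving out 1 day gave 0 to 2678. The 4-day values of gadd45a.L, gadd45g.L, casp9.S and mcl1.L passed in DESeq2 (3.14, 4.20, 1.25 and 0.87), and leaving out day 1 did so for gadd45a.L, gadd45g.L and casp9.S, with ranges over the days left out of 2.52 to 3.78, 3.74 to 4.95 and 0.91 to 1.67. Leaving out 1 day moved the count of slopes from 3296 to between 1233 and 5163. The slope of mcl1.L, 0.09, was -0.02 with total counts (adjusted p = 0.951) and -0.54 to 0.31 with 1 day left out. The slope of gadd45g.L did not pass with summed copies (1.16, adjusted p = 0.0678) or without the replicate block (0.97), and leaving out 1 day gave 0.30 to 1.46. For gadd45a.L that range was 0.61 to 1.41 and for casp9.S 0.56 to 0.67. With the 7 uninjured libraries as reference, 207 genes in place of 417 were over 2-fold apart at day 1. The cause of these shifts was not tested, except that fewer days or libraries entered where some were left out.

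Alternatives were run for the list members named by the rule, and of these the following changed sign. Over the 4 days, gsk3b.S was -0.0077 with total counts, fadd.L -0.016 with summed copies, and with 1 day left out fadd.L ranged from -0.039 to 0.45, casp6.L from -0.085 to 0.59 (-0.062 without day 7) and gadd45gip1.1 from -0.11 to 0.41. For the slope with total counts, bcl2l10.L was -0.022, bcl2l10.S -0.097, gsk3b.S -0.0047, huwe1.1 -0.018 and map2k4.L -0.023, and bcl2l10.S was -0.0019 without the block. With 1 day left out, the lowest slope being without day 1, gadd45g.S ranged from -0.21 to 1.61, bcl2l10.L from -0.48 to 0.33, bcl2l10.S from -0.25 to 0.056, diablo.S from -0.025 to 0.32, huwe1.1 from -0.16 to 0.29, jun.L from -0.29 to 1.23, mapk8ip1.S from -0.035 to 0.20, mapk8ip1.L from -0.47 to 0.35 and map2k4.L from -0.76 (adjusted p = 0.00948) to 0.40. In the late comparison mcl1.S was -0.0029 with total counts. Taking each late day alone is the same fit as leaving out the other.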

Other observations

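Some list members, picked once their values were known, shared the day 3 peak of mcl1.L. The kinase genes map2k4.L and map2k4.S, which act upstream of JNK, stood at 242 and 243 CPM in the crushed eye at day 3, against 70.6 and 63.6 CPM in the contralateral eye, and at 83.0 and 62.3 CPM at day 11, against 67.7 and 48.7 CPM. The log2 ratio of bnip3.L was 0.17, 1.39, 0.01 and -0.91 at days 1, 3, 7 and 11, and that of bmf.L, encoding a BH3-only protein, was -0.05, 1.32, -0.52 and -0.08. These ratios are 1 library against 1 and were not tested.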
